A study of Mus musculus with 12 samples.

Results

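The genes described are the 10 of 32246 genes in the deposited table that encode the NF-kB subunits and their main inhibitors: Nfkb1, Nfkb2, Rel, Rela, Relb, Nfkbia, Nfkbib, Nfkbie, Nfkbiz and Tnfaip3. They were taken by gene name, but the members and the lists below were chosen with earlier results of these data known. All 10 were among the 11165 genes that reached an expression level of 1 FPKM (fragments per kilobase of exon, scaled to library size) in at least 4 of 12 libraries and were tested. Total RNA was sequenced from mouse bone marrow-derived macrophages, which were cultured for 7 days with 50 ng/mL of GM-CSF, a myeloid growth factor. In the PLG+EACA+RNase group (n = 4), cells received for 24 h plasminogen (PLG, the precursor of the clot-dissolving protease plasmin) that had been exposed to EACA, a lysine analogue that occupies plasminogen's lysine-binding sites, together with RNases. In the PLG+EACA group (n = 4), the plasminogen had been exposed to EACA alone, and the remaining group (n = 4) was untreated. The series addresses whether RNA carried by plasminogen acts on immune cells, and the EACA and RNase steps were applied to the plasminogen. The libraries analysed include no group given EACA alone, RNase alone, or plasminogen without EACA. The labels give no endotoxin content, and mouse strain, sex and age are not given in the sources used here. The labels do not say whether replicates came from separate animals or cultures, so p-values measure only the spread between these samples, which may be technical.

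NF-kB transcription factors are dimers of subunits that share a Rel homology domain, and in resting macrophages the IkB proteins hold most of them in the cytoplasm. Signals from Toll-like and cytokine receptors activate the IkB kinase complex, IkB is degraded, and dimers enter the nucleus, where they induce inflammatory genes. Genes of several subunits and inhibitors are themselves NF-kB targets, which makes their transcripts a usual readout of the pathway and part of its feedback.

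In PLG+EACA macrophages, 8 of the 10 genes were higher than in untreated macrophages, led by Tnfaip3 (2.4-fold), Nfkbia (1.88-fold) and Nfkb2 (1.7-fold); of all 11165 genes tested, 14.9% were higher and 53.4% lower, or 27.8% and 25.2% after median-of-ratios rescaling. With the RNase step, Tnfaip3 (2.2-fold), Nfkbia (1.78-fold), Nfkbib (1.74-fold) and Nfkb2 (1.46-fold) were still higher than in untreated cells (16% of all genes were), while Relb was lower (48.4% of all genes were) on the deposited scale but not after median-of-ratios rescaling. Between the plasminogen groups, Nfkb1, Nfkb2, Rel, Rela, Nfkbie and Nfkbiz were lower in PLG+EACA+RNase than in PLG+EACA cells, by 1.16-fold to 1.31-fold (8.73% of all genes were lower), and of these 6 calls Nfkbiz alone held when only these 2 groups were fitted. Tnfaip3, Nfkbia, Nfkbib and Relb did not pass the test there.

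The libraries held 12940880 to 22677041 counted reads, recovered from the steps between FPKM values, and each of the 10 genes had 1399 to 15742 of them in a library. Counting error was therefore 0.797% to 2.67% of a value. The median spread between replicates was 9.19% in PLG+EACA+RNase, 5.57% in PLG+EACA and 2.49% in untreated libraries. Counting error lay below that median in both plasminogen groups, whereas its upper end exceeded the median in untreated libraries. The 7 macrophage markers summed to 3949 to 4468 FPKM in PLG+EACA+RNase, 3952 to 5785 in PLG+EACA and 5189 to 5788 FPKM in untreated libraries, and none was at 0. Lyz2 supplied most of these sums. Of the 7, 2 were higher and 4 lower in PLG+EACA than in untreated cells (14.9% and 53.4% of all genes), or 2 and 3 after median-of-ratios rescaling (27.8% and 25.2%). In PLG+EACA+RNase against untreated, 1 was higher and 4 were lower (16% and 48.4% of all genes), or 1 and 2 after rescaling (25% and 30.2%). Dendritic cell markers (4 of 7 tested) summed to 515.6 to 567.7 FPKM in PLG+EACA+RNase, 420.6 to 555.0 in PLG+EACA and 564.9 to 616.3 FPKM in untreated libraries. Itgax supplied most of these sums. Of the 4, 1 was higher and 1 lower in PLG+EACA than in untreated cells, and 2 and 1 in PLG+EACA+RNase against untreated. After median-of-ratios rescaling, 2 were higher and 0 lower in each of these comparisons. Neutrophil markers (5 of 8 tested) summed to 24.7 to 60.3 FPKM in PLG+EACA+RNase, 26.1 to 70.3 in PLG+EACA and 14.1 to 58.1 FPKM in untreated libraries. Ly6g was listed at 0 in every untreated library. None of the 7 lymphocyte markers was tested, with sums of 0.608 FPKM at most, and stromal and endothelial markers (2 of 6 tested) summed to 17.1 FPKM at most. In bulk samples, fewer cells of a type and less RNA per cell cannot be told apart, and the part of cell composition in the results below was not tested. The median gene differed by -0.26 (log2) between PLG+EACA and untreated, by -0.20 between PLG+EACA+RNase and untreated, and by 0.04 between PLG+EACA+RNase and PLG+EACA. Fold changes are on the log2(FPKM + 0.5) scale as deposited. Calls of the 10 genes that change when libraries are rescaled by their median ratio to the average library are given with both values. Values per library and statements on overlap are as deposited unless rescaling is named.

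**Figure D1:**
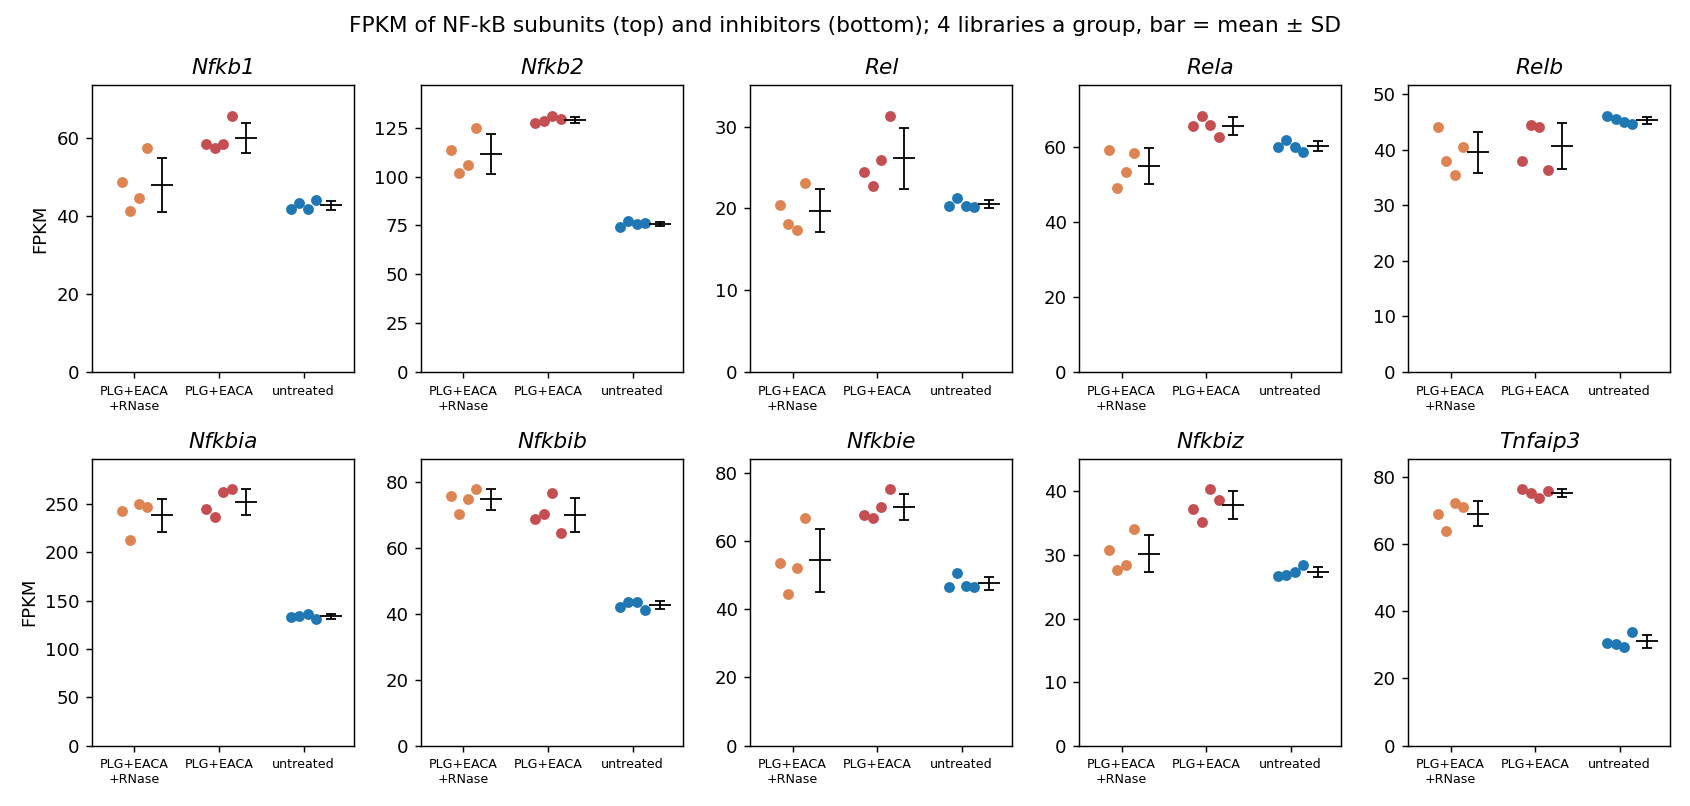
FPKM (vertical axes, from 0) of each of the 10 genes in every library, with subunits in the top row and inhibitors in the bottom row; points are libraries and bars are the mean ± SD of 4. Tnfaip3, Nfkbia, Nfkbib and Nfkb2 of both plasminogen groups lie above all untreated libraries, and Relb lies below them on this scale.

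Promoter windows were matched in RefSeq (GRCm38.p6) for 7 of the 10 genes and were searched on both strands for the kappa B consensus, the 10-base motif bound by NF-kB dimers; Nfkb1, Relb and Nfkbiz had no entry. A window runs from 250 bases before a transcript start to 50 bases after it, and Nfkb2 has 3 windows and Tnfaip3 has 2. The consensus was present in 7 of 10 windows and in 5 of 7 genes, Nfkb2, Rel, Nfkbia, Nfkbie and Tnfaip3, whereas it was found in 8.46% of all 32851 RefSeq promoter windows and in 10.6% of the 10410 windows of genes tested. Windows of Rela and Nfkbib and the second window of Tnfaip3 held no match to the consensus, and windows 2 and 3 of Nfkb2 overlap and share 1 match. The 4 windows shown first are from genes of both classes with a match near the start, and the last pair, Nfkbib and Rela, is shown because Nfkbib rose without a match in its window and Rela is the subunit used below as a within-library standard. Each is printed 5′ to 3′ on the gene's strand with matches to the consensus, on either strand, in capitals.
Nfkb2, window 1, chr19:46304487-46304786, plus strand: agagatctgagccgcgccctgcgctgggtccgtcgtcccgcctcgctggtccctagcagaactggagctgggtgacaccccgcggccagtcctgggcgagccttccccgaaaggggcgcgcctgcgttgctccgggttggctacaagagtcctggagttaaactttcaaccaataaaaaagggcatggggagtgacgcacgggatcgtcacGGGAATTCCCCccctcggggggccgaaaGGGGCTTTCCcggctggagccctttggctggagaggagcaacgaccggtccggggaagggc
Rel, chr11:23770920-23771219, minus strand: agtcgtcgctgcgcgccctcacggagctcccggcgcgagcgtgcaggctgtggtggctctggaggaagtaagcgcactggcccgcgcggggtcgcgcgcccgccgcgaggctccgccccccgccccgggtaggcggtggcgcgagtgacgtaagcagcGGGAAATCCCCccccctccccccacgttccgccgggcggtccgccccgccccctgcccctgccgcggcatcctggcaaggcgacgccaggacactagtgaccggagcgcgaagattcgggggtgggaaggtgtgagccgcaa
Nfkbia, chr12:55492598-55492897, minus strand: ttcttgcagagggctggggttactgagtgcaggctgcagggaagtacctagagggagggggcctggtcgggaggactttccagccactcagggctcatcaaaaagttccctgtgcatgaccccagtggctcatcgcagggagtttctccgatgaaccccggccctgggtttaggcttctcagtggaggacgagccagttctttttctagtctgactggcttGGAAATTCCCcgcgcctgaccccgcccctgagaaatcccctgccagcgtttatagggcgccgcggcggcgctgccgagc
Tnfaip3, window 1, chr10:19015361-19015660, minus strand: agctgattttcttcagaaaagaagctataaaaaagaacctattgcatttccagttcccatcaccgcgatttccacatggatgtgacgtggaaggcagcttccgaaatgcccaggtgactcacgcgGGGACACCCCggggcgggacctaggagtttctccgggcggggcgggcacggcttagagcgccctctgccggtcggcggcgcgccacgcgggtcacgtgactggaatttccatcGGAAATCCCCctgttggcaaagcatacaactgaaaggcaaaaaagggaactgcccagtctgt
Nfkbib, chr7:28766595-28766894, minus strand: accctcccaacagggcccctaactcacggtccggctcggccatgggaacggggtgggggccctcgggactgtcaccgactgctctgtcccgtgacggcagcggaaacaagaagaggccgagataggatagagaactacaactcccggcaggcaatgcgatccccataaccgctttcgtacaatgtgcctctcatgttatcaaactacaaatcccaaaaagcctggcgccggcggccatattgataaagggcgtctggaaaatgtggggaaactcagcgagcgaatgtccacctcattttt
Rela, chr19:5637291-5637590, plus strand: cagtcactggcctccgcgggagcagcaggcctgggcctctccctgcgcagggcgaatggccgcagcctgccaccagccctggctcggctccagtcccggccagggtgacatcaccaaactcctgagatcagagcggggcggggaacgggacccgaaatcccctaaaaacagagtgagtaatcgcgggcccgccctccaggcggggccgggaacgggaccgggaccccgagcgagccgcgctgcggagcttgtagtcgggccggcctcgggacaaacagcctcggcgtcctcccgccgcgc
In Nfkb2 window 1, matches overlap from 39 bases before the start and another begins 11 bases before it, and the Rel matches begin 92 and 91 bases before the start. The Nfkbia match begins 29 bases before the start, and Tnfaip3 has matches from 125 and from 12 bases before it. A match is a run of letters and not a measured binding site, and the absence of one concerns only these windows.

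Among the subunits, Nfkb2 had the largest fold change against untreated cells. Nfkb2 (chr19:46304320-46312385, plus strand, GRCm38) encodes the p100 precursor, which is processed to p52 in the non-canonical pathway and in its unprocessed form can act as an inhibitor. It had 113.4, 101.8, 106.0 and 124.8 FPKM in PLG+EACA+RNase libraries, 127.5, 128.6, 131.2 and 129.4 FPKM in PLG+EACA libraries, and 74.4, 77.1, 75.6 and 76.1 FPKM in untreated libraries. The 3 groups did not overlap, and PLG+EACA was highest. By limma with Benjamini-Hochberg adjustment over 11165 genes, Nfkb2 was higher in PLG+EACA than in untreated cells by 0.77 ± 0.0546 (log2, SE; adjusted p = 4.51e-07) and in PLG+EACA+RNase than in untreated cells by 0.55 (adjusted p = 4.95e-06). It was lower in PLG+EACA+RNase than in PLG+EACA cells, at -0.22 (95% interval -0.33 to -0.10, adjusted p = 0.0202). Opposite-strand genes overlap 299 exon bases (Psd, 6.52% of the exon bases of Nfkb2) and 531 exon bases (AC114539.1, 11.6%). Psd averaged 6.81 FPKM in PLG+EACA+RNase, 6.42 in PLG+EACA and 7.19 FPKM in untreated libraries, and AC114539.1 averaged 7.42, 7.94 and 8.39 FPKM in the same order, so neither approached Nfkb2. The kit was directional, but whether counting used strand is not given in the sources used here.

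Nfkb1 (chr3:135584655-135691547, minus strand) encodes p105, the precursor of p50, the usual partner of p65. It had 48.8, 41.4, 44.8 and 57.5 FPKM in PLG+EACA+RNase libraries, 58.5, 57.6, 58.5 and 65.8 FPKM in PLG+EACA libraries, and 41.9, 43.4, 41.8 and 44.1 FPKM in untreated libraries. All PLG+EACA libraries exceeded all others, whereas the RNase libraries spread around the untreated ones, 3 above all of them and 1 below. Nfkb1 was higher in PLG+EACA than in untreated cells by 0.48 ± 0.0842 (limma, Benjamini-Hochberg adjusted p = 0.000304). It was lower in PLG+EACA+RNase than in PLG+EACA cells, at -0.33 (adjusted p = 0.0217, same test). Against untreated cells, the RNase group gave 0.16 (95% interval -0.03 to 0.34, limma with Benjamini-Hochberg adjustment, adjusted p = 0.122), and the rescaled libraries gave a value that passed, 0.34, with an adjusted p of 0.0172. Leaving Gm26917 out of the total also gave a value that passed (0.20, adjusted p = 0.0434).

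Rel (chr11:23736847-23770970, minus strand) encodes c-Rel, a transactivating subunit needed for Il12b induction in mouse macrophages. It was the lowest of the 10 in every group, with 20.4, 18.1, 17.3 and 23.1 FPKM in PLG+EACA+RNase libraries, 24.4, 22.8, 25.9 and 31.3 FPKM in PLG+EACA libraries, and 20.3, 21.2, 20.3 and 20.2 FPKM in untreated libraries. PLG+EACA lay above untreated without overlap, and the RNase libraries overlapped both other groups. Rel was higher in PLG+EACA than in untreated cells by 0.33 ± 0.0998 (limma, Benjamini-Hochberg adjusted p = 0.0107) and lower in PLG+EACA+RNase than in PLG+EACA cells, at -0.39 (adjusted p = 0.0202). PLG+EACA+RNase against untreated gave -0.06 (95% interval -0.28 to 0.16, adjusted p = 0.607) and 0.12 with median-of-ratios scaling, so its sign depended on scaling.

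Rela (chr19:5637483-5648130, plus strand) encodes p65, the main transactivating subunit. Its values were 59.1, 49.0, 53.4 and 58.5 FPKM in PLG+EACA+RNase libraries, 65.7, 68.4, 65.8 and 62.6 FPKM in PLG+EACA libraries, and 60.1, 61.9, 60.1 and 58.7 FPKM in untreated libraries. PLG+EACA lay above both other groups, which overlapped each other. The difference between PLG+EACA+RNase and PLG+EACA was -0.26 (limma, Benjamini-Hochberg adjusted p = 0.0129). PLG+EACA against untreated gave 0.12 (95% interval -0.00176 to 0.25, adjusted p = 0.0742), which passed after median-of-ratios scaling (0.41, adjusted p = 0.000281) and without RNase replicate 2 (adjusted p = 0.0287). It also passed with only these 2 groups fitted (adjusted p = 0.0206) and with Gm26917 left out of the total (0.15, adjusted p = 0.0422). The RNase group against untreated cells gave -0.13 (adjusted p = 0.0602, but 0.0262 without RNase replicate 1 and 0.0316 without RNase replicate 4) as deposited and 0.05 with median-of-ratios scaling.

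Relb (chr7:19606217-19629438, minus strand), the partner of p52 in the non-canonical pathway, had its highest FPKM as deposited in untreated cells. It had 44.1, 37.9, 35.5 and 40.5 FPKM in PLG+EACA+RNase libraries, 38.0, 44.4, 44.0 and 36.3 FPKM in PLG+EACA libraries, and 46.1, 45.5, 45.0 and 44.6 FPKM in untreated libraries. As deposited, all 8 plasminogen libraries lay below the untreated ones, and the 2 plasminogen groups overlapped. With median-of-ratios scaling, both plasminogen groups overlapped the untreated libraries. Relb was lower in PLG+EACA+RNase than in untreated cells, at -0.20 (limma, Benjamini-Hochberg adjusted p = 0.0359), a call that ended with median-of-ratios scaling (-0.01, adjusted p = 0.885) and without RNase replicate 2 or 3 or any 1 untreated library (adjusted p = 0.0569 to 0.107). PLG+EACA against untreated gave -0.16 (adjusted p = 0.0825, but 0.0402 without PLG+EACA replicate 2 and 0.0473 without PLG+EACA replicate 3), and 0.13 with median-of-ratios scaling. The plasminogen groups differed by -0.04 with RNase against without (95% interval -0.21 to 0.12, adjusted p = 0.73, limma with Benjamini-Hochberg adjustment).

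The mixture of subunit transcripts differed between the treated and untreated cells, and shares of a sum do not depend on library scaling. Nfkb2 made up 40.7% ± 0.712 of the summed FPKM of the 5 subunit genes in PLG+EACA+RNase, 40.2% ± 0.371 in PLG+EACA and 31.0% ± 0.249 in untreated cells (SD, n = 4 each). Relb made up 14.4% ± 1.04, 12.6% ± 1.24 and 18.5% ± 0.333 in the same order, and Rela 20.1% ± 0.759, 20.4% ± 0.887 and 24.6% ± 0.355. Shares of Nfkb1 (17.5%, 18.7% and 17.5%) and Rel (7.19%, 8.11% and 8.38%) lay closer together. The 5 genes summed to 273.9 ± 25.9 FPKM in PLG+EACA+RNase, 321.7 ± 5.31 in PLG+EACA and 244.6 ± 3.10 FPKM in untreated cells.

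**Figure D2:**
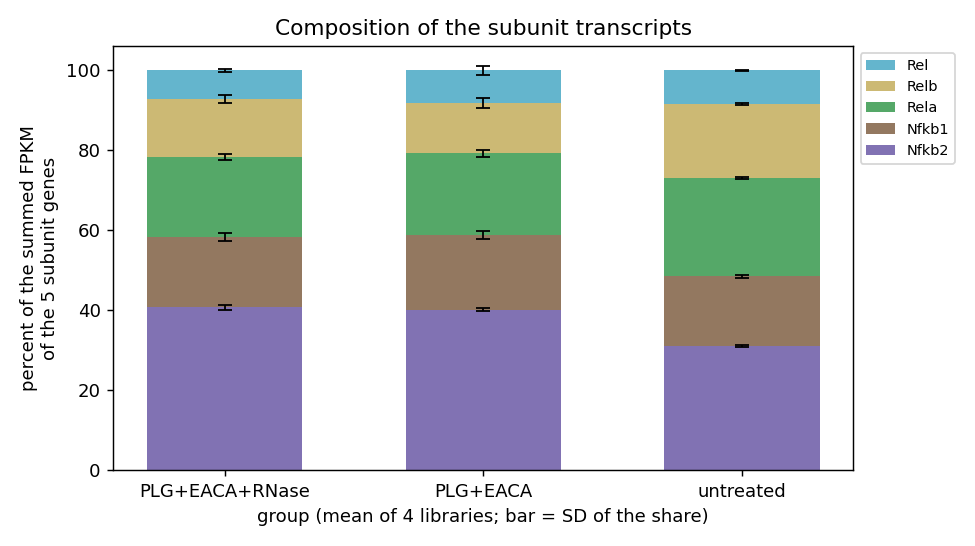
Mean percent (vertical axis) of the summed FPKM of the 5 subunit genes taken by each gene in the 3 groups; bars show the SD of each share over 4 libraries. The Nfkb2 share is 40.7% and 40.2% in the plasminogen groups and 31.0% in untreated cells, and the Relb and Rela shares are smaller in both plasminogen groups.

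Among the inhibitors, Nfkbia (chr12:55489410-55492647, minus strand) encodes IkBα, the fast feedback inhibitor that is degraded and resynthesised after stimulation. It was the most abundant of the 10 in every group, with 242.1, 213.0, 249.9 and 247.0 FPKM in PLG+EACA+RNase libraries, 244.0, 236.5, 262.0 and 264.7 FPKM in PLG+EACA libraries, and 133.2, 133.8, 136.5 and 130.7 FPKM in untreated libraries. Both plasminogen groups lay far above untreated and overlapped each other. Nfkbia was higher in PLG+EACA by 0.91 ± 0.0559 (limma, Benjamini-Hochberg adjusted p = 1.8e-07) and in PLG+EACA+RNase by 0.83 (adjusted p = 3.59e-07) than in untreated cells. PLG+EACA+RNase against PLG+EACA gave -0.08 (95% interval -0.20 to 0.04, adjusted p = 0.309).

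Nfkbib (chr7:28758251-28767512, minus strand) encodes IkBβ, which is degraded and restored more slowly. It had 75.7, 70.3, 74.9 and 77.6 FPKM in PLG+EACA+RNase libraries, 68.5, 70.0, 76.7 and 64.5 FPKM in PLG+EACA libraries, and 41.9, 43.6, 43.4 and 41.3 FPKM in untreated libraries. Both plasminogen groups stood above untreated, and they overlapped each other. Nfkbib was higher in PLG+EACA by 0.71 ± 0.0533 (limma, Benjamini-Hochberg adjusted p = 6.3e-07) and in PLG+EACA+RNase by 0.80 (adjusted p = 3.18e-07) than in untreated cells. With RNase against without, the plasminogen groups differed by 0.09 (95% interval -0.02 to 0.21, adjusted p = 0.221), and -0.00728 with median-of-ratios scaling. Sirt2 and Ccer2, on the opposite strand, overlap 42 exon bases (1.94%) and 314 exon bases (14.5%) of Nfkbib. Sirt2 averaged 30.0 FPKM in PLG+EACA+RNase, 26.0 in PLG+EACA and 26.0 FPKM in untreated libraries, and Ccer2 averaged 1.01, 0.359 and 0.330 FPKM in the same order.

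Nfkbie (chr17:45555703-45563169, plus strand) encodes IkBε, an inhibitor induced later than IkBα. It had 53.6, 44.6, 52.2 and 66.7 FPKM in PLG+EACA+RNase libraries, 67.4, 66.6, 70.0 and 75.0 FPKM in PLG+EACA libraries, and 46.5, 50.4, 46.8 and 46.6 FPKM in untreated libraries. PLG+EACA stood above untreated, and the RNase libraries ran between the 2 groups and overlapped both. Nfkbie was higher in PLG+EACA than in untreated cells by 0.55 ± 0.0954 (limma, Benjamini-Hochberg adjusted p = 0.000307) and lower in PLG+EACA+RNase than in PLG+EACA cells, at -0.37 (adjusted p = 0.0208). For the RNase group against untreated cells the difference was 0.17 (95% interval -0.03 to 0.38, adjusted p = 0.13), which passed after median-of-ratios scaling (0.36, adjusted p = 0.0198). The 3 cytoplasmic IkB genes summed to 366.9 ± 27.3 FPKM in PLG+EACA+RNase, 391.5 ± 17.6 in PLG+EACA and 223.7 ± 4.40 FPKM in untreated cells. Nfkbia took 64.9%, 64.3% and 59.7% of that sum in the same order, and Nfkbie took 14.7%, 17.8% and 21.3%.

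Nfkbiz (chr16:55811375-55838899, minus strand) encodes IkBζ, a nuclear IkB protein that acts as a coactivator at secondary response genes such as Il6. It had 30.7, 27.6, 28.3 and 34.0 FPKM in PLG+EACA+RNase libraries, 37.3, 35.2, 40.3 and 38.6 FPKM in PLG+EACA libraries, and 26.6, 26.8, 27.3 and 28.4 FPKM in untreated libraries. PLG+EACA stood above both other groups, which overlapped. Nfkbiz was higher in PLG+EACA than in untreated cells by 0.46 ± 0.0648 (limma, Benjamini-Hochberg adjusted p = 5.84e-05) and lower in PLG+EACA+RNase than in PLG+EACA cells, at -0.32 (adjusted p = 0.00897). PLG+EACA+RNase against untreated gave 0.14 (95% interval -0.00296 to 0.28, adjusted p = 0.0796), which passed after median-of-ratios scaling (0.32, adjusted p = 0.00492) and with Gm26917 left out of the total (0.18, adjusted p = 0.0190).

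Tnfaip3 (chr10:19000910-19015657, minus strand) encodes A20, a ubiquitin-editing enzyme that stops signalling upstream of the IkB kinase, and it had the highest fold change of the 10 against untreated cells. It had 68.9, 63.8, 72.0 and 71.0 FPKM in PLG+EACA+RNase libraries, 76.2, 75.2, 73.6 and 75.6 FPKM in PLG+EACA libraries, and 30.7, 30.3, 29.3 and 33.8 FPKM in untreated libraries. The groups did not overlap, and the 2 plasminogen groups were close together. Tnfaip3 was higher in PLG+EACA by 1.26 ± 0.0513 (limma, Benjamini-Hochberg adjusted p = 1.77e-08) and in PLG+EACA+RNase by 1.14 (adjusted p = 3.15e-08) than in untreated cells. PLG+EACA+RNase against PLG+EACA gave -0.12 (95% interval -0.24 to -0.01, adjusted p = 0.103), which passed after median-of-ratios scaling (-0.23, adjusted p = 0.0284). By level per kilobase, Tnfaip3 ranked 4 of 10 in PLG+EACA+RNase, 3 in PLG+EACA and 8 in untreated cells. Nfkbia and Nfkb2 ranked first and second in every group, without overlap between the libraries of either and the next gene, and Nfkbiz and Rel ranked last.

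Set against all genes, the counts were as follows. For PLG+EACA against untreated, 8 of the 10 were higher and none was lower by limma, while 14.9% of the 11165 genes tested were higher and 53.4% were lower; Rela and Relb did not pass, and the unadjusted p of Rela was 0.0528 and that of Relb 0.0593. The median of the 10 was 0.51 (log2), against -0.26 for all genes. As deposited, no member's libraries overlapped between PLG+EACA and untreated, with 9 above (13.8% of all genes) and Relb below (50.9% of all genes). Between PLG+EACA+RNase and untreated, 4 lay above (15% of all genes) and Relb below (46.7% of all genes). For PLG+EACA+RNase against untreated, 4 were higher (16% of all genes) and 1 was lower (48.4% of all genes), with a median of 0.17 against -0.20 for all genes. With median-of-ratios scaling, 9 were higher in PLG+EACA (27.8% of all genes) and 7 in PLG+EACA+RNase (25% of all genes), and none was lower in either, where 25.2% and 30.2% of all genes were lower. On that scale Relb of PLG+EACA (39.9 to 48.2) and PLG+EACA+RNase (35.8 to 45.2) overlapped untreated (39.8 to 41.4). Nfkb1 and Nfkbiz then also lay above untreated in PLG+EACA+RNase, from 41.4 against at most 39.9 and from 27.6 against at most 25.7. Both comparisons use the same untreated libraries.

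**Figure D3:**
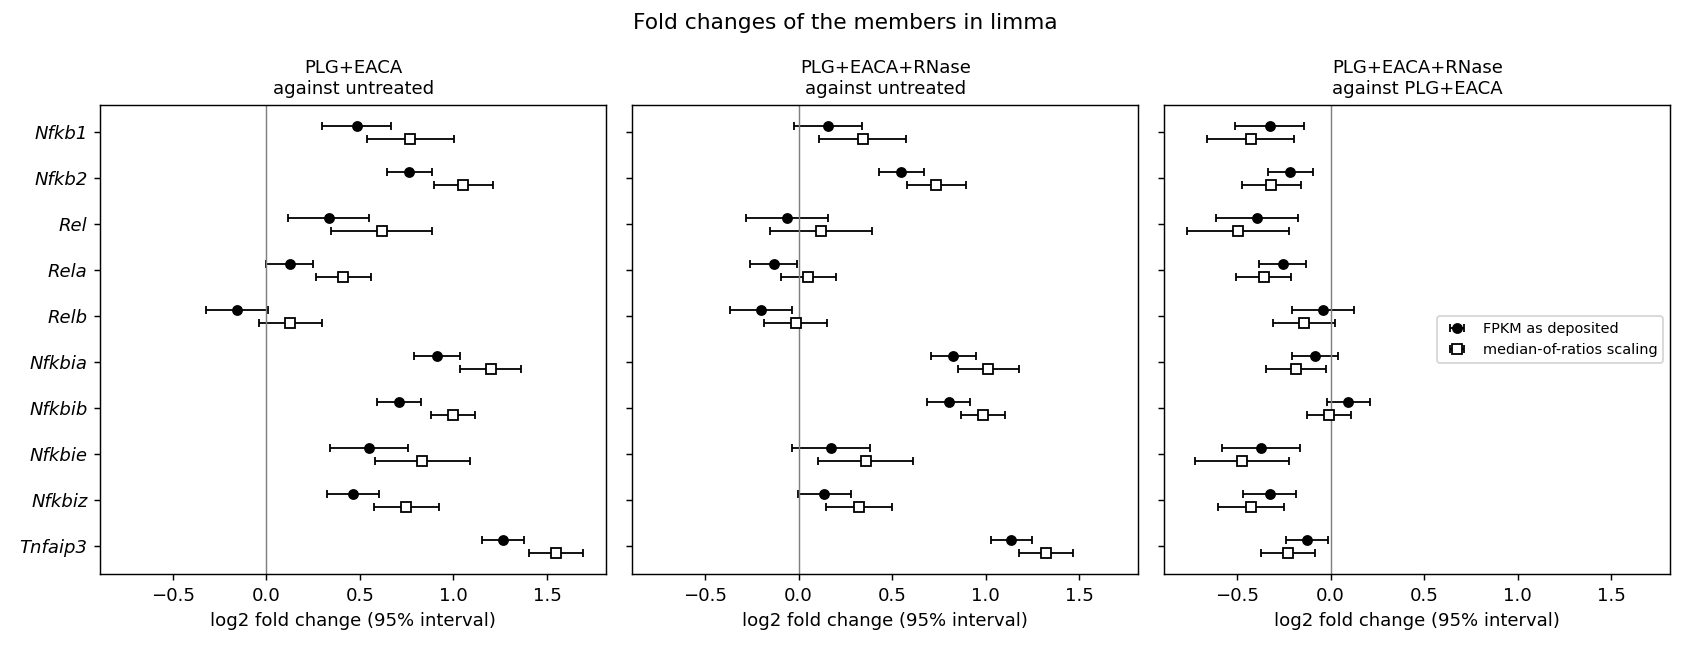
Fold changes (log2, horizontal axes) of the 10 genes in the 3 comparisons, with 95% intervals from limma; filled circles use FPKM as deposited and open squares median-of-ratios scaling. The intervals of Nfkb2, Nfkbia, Nfkbib and Tnfaip3 lie above 0 in both comparisons with untreated cells, and Relb, Rel, Rela and Nfkbib each have a comparison in which the sign differs between scalings.

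For PLG+EACA+RNase against PLG+EACA, 6 of the 10 were lower (Nfkb1, Nfkb2, Rel, Rela, Nfkbie and Nfkbiz) and none was higher by limma, with all-gene shares of 8.73% lower and 12.1% higher. No member had an unadjusted p under 0.05 in the higher direction. The median of the 10 was -0.24, against 0.04 for all genes. As deposited, 5 of the 10 lay below PLG+EACA in every library (7.68% of all genes): Nfkb1, Nfkb2, Rela, Nfkbiz and Tnfaip3. After median-of-ratios rescaling, Rel (at most 24.1 against at least 24.8) and Nfkbie (at most 69.7 against at least 70.7) also did. With median-of-ratios scaling, Tnfaip3 joined the 6 genes lower by limma, for 7 lower (17.3% of all genes) and none higher (7.77% of all genes). The count depended on the samples in the fit: with only these 2 groups fitted, 1 gene (Nfkbiz) remained, and without RNase replicate 2 or RNase replicate 3, 2 remained (Rela and Nfkbiz). Without PLG+EACA replicate 4, Nfkb1 and Nfkbie no longer passed (adjusted p = 0.0561 for Nfkb1 and 0.0544 for Nfkbie, limma with Benjamini-Hochberg adjustment). RNase replicate 2 was the lowest of its group for 8 of the 10 genes and RNase replicate 4 the highest for 6. Without RNase replicate 2, Nfkb1, Nfkbie and Nfkbiz passed against untreated, for 7 higher in all.

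Ratios between these genes within a library are independent of library scaling and were compared after the levels had been seen, in 33 comparisons (exact two-sided permutation tests of log2 ratios, 4 libraries against 4). The smallest p the design allows, 0.0286, was reached in 20, with a Benjamini-Hochberg adjusted value of 0.0471, and in those 20 the groups did not overlap. Relative to Rela, Tnfaip3 averaged 1.26 in PLG+EACA+RNase, 1.15 in PLG+EACA and 0.516 in untreated cells, and Nfkbia averaged 4.34, 3.84 and 2.22 in the same order. Both ratios were at that smallest p against untreated in either plasminogen group. Nfkb2 per Rela averaged 2.03, 1.97 and 1.26, and Nfkb2 per Relb averaged 2.83 ± 0.239, 3.20 ± 0.314 and 1.67 ± 0.0410 (SD, n = 4 each), again without overlap with untreated cells. The ratios of Nfkb1, Nfkbie and Nfkbiz to Rela were higher in both plasminogen groups than in untreated cells without overlap. They averaged 0.873, 0.918 and 0.711 for Nfkb1, 0.983, 1.07 and 0.790 for Nfkbie, and 0.549, 0.577 and 0.453 for Nfkbiz, in the order PLG+EACA+RNase, PLG+EACA and untreated. As deposited, the levels of these genes did not separate PLG+EACA+RNase from untreated cells. With median-of-ratios scaling, each of them passed there (limma, Benjamini-Hochberg adjusted p = 0.0172, 0.0198 and 0.00492), and Nfkb1 and Nfkbiz did not overlap. Rela itself differed by -0.13 (log2) between PLG+EACA+RNase and untreated cells as deposited, and by 0.05 with median-of-ratios scaling. A ratio does not tell which of its 2 genes changed. Between PLG+EACA+RNase and PLG+EACA, 1 ratio in the 33 had groups that did not overlap, Nfkbib to Rela. It averaged 1.36 ± 0.0703 in PLG+EACA+RNase and 1.07 ± 0.0669 in PLG+EACA (SD, n = 4 each), a difference of 0.35 (log2, 1.28-fold, exact permutation p = 0.0286, adjusted 0.0471). That adjusted value is shared by the 20 comparisons at the smallest p. All others of the 20 were against untreated cells, so the value rests mostly on those. Between the plasminogen groups, Rela itself differed by -0.26 (limma, Benjamini-Hochberg adjusted p = 0.0129), and Nfkbib by 0.09 (adjusted p = 0.221, same test). The ratio therefore does not show a change of Nfkbib alone. For Nfkb1, Nfkbie and Nfkbiz the ratio to Rela differed between these groups by -0.07, -0.12 and -0.07 (log2, exact permutation p = 0.486, 0.314 and 0.371). Nfkb1 per Nfkb2 averaged 0.430 in PLG+EACA+RNase, 0.465 in PLG+EACA and 0.565 in untreated cells, lower in both plasminogen groups without overlap.

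**Figure D4:**
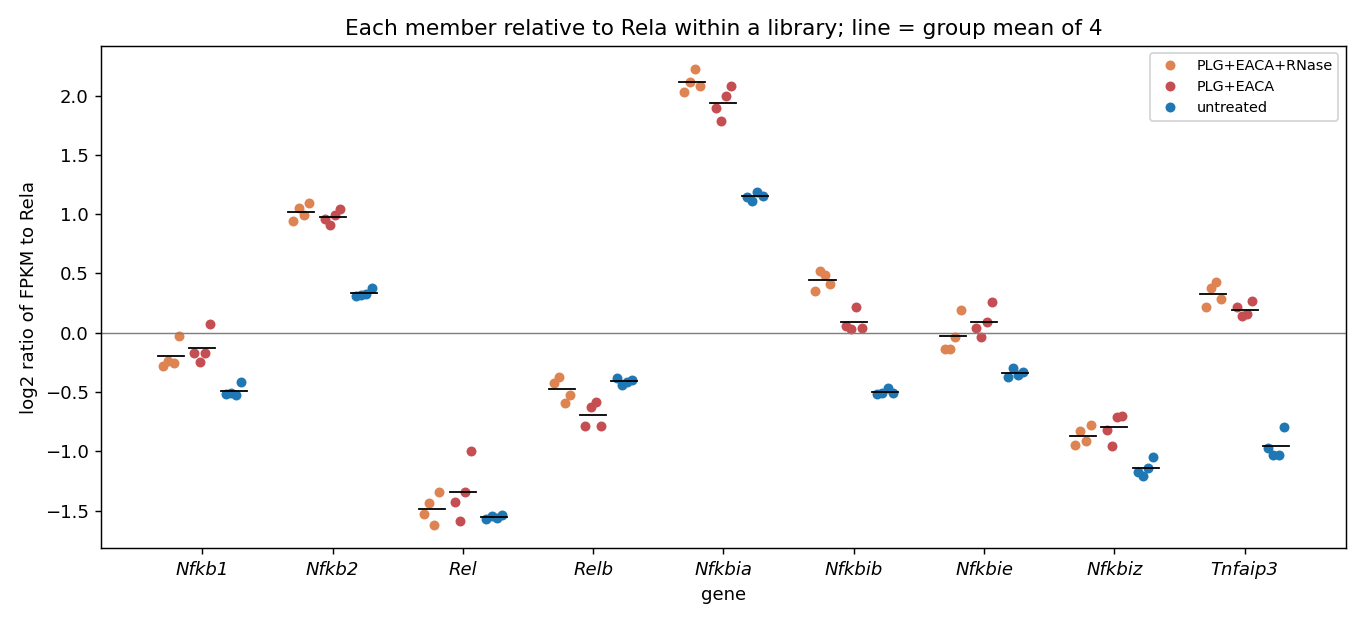
Ratio of the FPKM of each gene to that of Rela within a library (log2, vertical axis); points are libraries of the 3 groups and lines are means of 4. Nfkbib is the gene whose points separate PLG+EACA+RNase (mean ratio 1.36) from PLG+EACA (1.07), and the ratios of Rel overlap in every comparison. Between these plasminogen groups Rela itself differed by -0.26 and Nfkbib by 0.09 (log2).

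Other genes of the pathway were counted from lists by role, to be read beside the shares of all genes: 14.9% higher and 53.4% lower in PLG+EACA against untreated, 16% and 48.4% in PLG+EACA+RNase against untreated, and 12.1% and 8.73% in PLG+EACA+RNase against PLG+EACA. After median-of-ratios scaling those shares were 27.8% and 25.2%, 25% and 30.2%, and 7.77% and 17.3%. The genes named are the 4 of each list with the smallest p in PLG+EACA against untreated, and those among the 4 with the smallest p in PLG+EACA+RNase against PLG+EACA that passed there.

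Of 10 genes for the IkB kinase and kinases upstream of it, 3 were higher and 4 lower in PLG+EACA than in untreated cells, 2 and 4 in PLG+EACA+RNase against untreated, and 0 and 1 in PLG+EACA+RNase against PLG+EACA. The numbers lower against untreated lie near the shares of all genes. Counts after median-of-ratios scaling were 7 and 2, 5 and 2, and 0 and 6, so the balance of directions depended on scaling. The median of the list was 0.02, -0.09 and -0.08 (log2) in the 3 comparisons, against -0.26, -0.20 and 0.04 for all genes. Ikbkg, the regulatory subunit NEMO, averaged 18.7 ± 1.41 FPKM in PLG+EACA+RNase, 20.1 ± 1.30 in PLG+EACA and 12.9 ± 0.403 FPKM in untreated cells. Map3k14, the kinase NIK that starts p100 processing, averaged 10.4 ± 0.797, 8.56 ± 1.43 and 13.9 ± 0.495 FPKM in the same order. Tbk1, an IKK-related kinase, averaged 31.9 ± 1.54, 34.9 ± 1.15 and 27.9 ± 0.756 FPKM. Ikbkg and Tbk1 were higher and Map3k14 lower in PLG+EACA than in untreated cells under both scalings. Tab1, a partner of the kinase TAK1, was likewise lower, with 4.61 ± 0.577, 3.91 ± 0.384 and 6.39 ± 0.627 FPKM. Ikbke, another IKK-related kinase, averaged 11.9 ± 1.42 FPKM in PLG+EACA+RNase and 14.3 ± 1.34 in PLG+EACA cells, with -0.27 (log2) between them (limma, Benjamini-Hochberg adjusted p = 0.0413).

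Of 21 adaptors and ubiquitin ligases, 10 were higher and 6 lower in PLG+EACA against untreated, 8 and 10 in PLG+EACA+RNase against untreated, and 0 and 4 in PLG+EACA+RNase against PLG+EACA (13 and 2, 9 and 6, and 0 and 9 with median-of-ratios scaling). The list's medians were 0.16, -0.10 and -0.09 (log2). Card9, an adaptor of C-type lectin receptors, averaged 16.5 ± 0.644 FPKM in PLG+EACA+RNase, 15.1 ± 1.39 in PLG+EACA and 31.1 ± 0.739 FPKM in untreated cells. Irak3, an inhibitory member of the IRAK family, averaged 14.9 ± 1.67, 15.2 ± 1.15 and 35.5 ± 2.53 FPKM in the same order. Both were lower in either plasminogen group than in untreated cells under both scalings. Traf1, a signalling adaptor of TNF receptors, averaged 38.1 ± 2.87, 41.6 ± 2.32 and 24.6 ± 1.02 FPKM. Rnf31, the catalytic subunit of the linear ubiquitin ligase complex, averaged 18.2 ± 3.80, 25.0 ± 2.19 and 11.5 ± 0.935 FPKM. Both of these were higher in either plasminogen group than in untreated cells. Rnf31 was also lower in PLG+EACA+RNase than in PLG+EACA cells, at -0.46 (log2; limma, Benjamini-Hochberg adjusted p = 0.0201), as were 3 other adaptors or ligases. Bcl10, the adaptor downstream of Card9, averaged 16.1 ± 1.59 FPKM in PLG+EACA+RNase and 20.3 ± 0.641 in PLG+EACA cells (-0.33, adjusted p = 0.00787). Myd88, the adaptor of most Toll-like receptors, averaged 32.9 ± 7.38 and 51.9 ± 7.80 FPKM in these groups (-0.66, adjusted p = 0.00961), and Birc2, the ubiquitin ligase cIAP1, 7.07 ± 0.351 and 8.13 ± 0.0936 FPKM (-0.19, adjusted p = 0.0232).

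Of 9 deubiquitinases and partners of A20, 3 were higher and 2 lower in PLG+EACA against untreated, 3 and 2 in PLG+EACA+RNase against untreated, and 2 and 3 in PLG+EACA+RNase against PLG+EACA (7 and 1, 6 and 1, and 2 and 4 with median-of-ratios scaling). The list's medians were 0.06, 0.07 and 0.05 (log2). Itch, a ubiquitin ligase that works with A20, had the smallest p in both comparisons with untreated cells and was lower in both, with 8.59 ± 0.0778 FPKM in PLG+EACA+RNase, 9.55 ± 0.287 in PLG+EACA and 13.2 ± 0.231 FPKM in untreated cells. Its differences were -0.59 in PLG+EACA+RNase (limma, Benjamini-Hochberg adjusted p = 2.49e-07) and -0.44 in PLG+EACA (adjusted p = 1.32e-06) against untreated. Tnip1 and Rnf11, also partners of A20, were higher in both. Tnip1 averaged 94.7 ± 3.74, 98.3 ± 1.80 and 79.6 ± 1.32 FPKM, and Rnf11 averaged 22.5 ± 1.04, 21.8 ± 1.75 and 15.5 ± 0.560 FPKM, in the order PLG+EACA+RNase, PLG+EACA and untreated. The deubiquitinase Cyld averaged 6.13 ± 0.379, 7.34 ± 0.366 and 6.19 ± 0.0830 FPKM in that order, higher in PLG+EACA than in either other group. Between PLG+EACA+RNase and PLG+EACA, Itch and Tnip3 were also lower, and Otulin, which cleaves linear ubiquitin chains, was higher (0.32, limma with Benjamini-Hochberg adjustment, adjusted p = 0.0151). Tnip3 averaged 6.96 ± 0.869 FPKM in PLG+EACA+RNase and 8.90 ± 0.688 in PLG+EACA cells, and Otulin averaged 35.5 ± 2.77 FPKM in PLG+EACA+RNase and 28.4 ± 3.03 in PLG+EACA cells.

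Of 8 genes for nuclear IkB proteins and the turnover of IkB and nuclear p65, 3 were higher and 5 lower, 2 and 5, and 0 and 2 in these comparisons (4 and 1, 3 and 2, and 0 and 2 with median-of-ratios scaling). The list's medians were -0.19, -0.24 and -0.06 (log2), the first 2 near those of all genes. Fbxw11, a receptor of phosphorylated IkB in a ubiquitin ligase, averaged 30.2 ± 0.687 FPKM in PLG+EACA+RNase, 33.1 ± 1.14 in PLG+EACA and 24.1 ± 0.821 FPKM in untreated cells. Pdlim2, which promotes degradation of nuclear p65, averaged 1.64 ± 0.0726, 1.33 ± 0.238 and 2.33 ± 0.248 FPKM in the same order. Nfkbid, a nuclear IkB protein, averaged 16.4 ± 2.07, 18.4 ± 2.40 and 13.7 ± 1.02 FPKM, and Cul1, a scaffold of the same ligase, averaged 13.8 ± 1.37, 16.7 ± 0.906 and 19.9 ± 0.625 FPKM. Cul1 differed by -0.25 between PLG+EACA and untreated as deposited and by 0.03 with median-of-ratios scaling, so its direction there depended on scaling. Cul1 and Fbxw11 were lower in PLG+EACA+RNase than in PLG+EACA cells, at -0.27 and -0.13 (limma, Benjamini-Hochberg adjusted p = 0.0184 and 0.04).

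Of 21 genes known as NF-kB targets in macrophages, 18 were higher and 1 lower in PLG+EACA than in untreated cells, 17 and 0 in PLG+EACA+RNase than in untreated cells, and 1 and 8 in PLG+EACA+RNase than in PLG+EACA cells (20 and 0, 19 and 0, and 0 and 10 with median-of-ratios scaling). Their median log2 differences were 1.80, 1.11 and -0.33 in these comparisons. The neutrophil-attracting chemokine Cxcl2 averaged 799.1 ± 50.6 FPKM in PLG+EACA+RNase, 882.7 ± 62.6 in PLG+EACA and 144.7 ± 17.4 FPKM in untreated cells. Cxcl1, a related chemokine, averaged 95.3 ± 5.39, 119.9 ± 13.2 and 13.99 ± 3.99 FPKM in the same order. Ccl5, a chemokine for T cells, averaged 348.7 ± 65.9, 438.6 ± 89.6 and 58.8 ± 8.04 FPKM. Ptgs2, the inducible cyclooxygenase, averaged 486.0 ± 69.3, 702.5 ± 110.4 and 71.4 ± 4.62 FPKM. These 4 were higher in both plasminogen groups, and Ptgs2 was also lower with RNase than without, at -0.53 (limma, Benjamini-Hochberg adjusted p = 0.0114). The cytokine Il6 averaged 82.6 ± 29.1, 163.5 ± 41.7 and 17.4 ± 2.91 FPKM, with -1.02 (log2) between PLG+EACA+RNase and PLG+EACA (limma, Benjamini-Hochberg adjusted p = 0.015). Icam1, an adhesion molecule, averaged 140.7 ± 5.75 FPKM in PLG+EACA+RNase, 174.3 ± 12.9 in PLG+EACA and 134.1 ± 6.50 FPKM in untreated cells, with -0.31 between the plasminogen groups (adjusted p = 0.00703). Csf1, a macrophage growth factor, averaged 55.5 ± 0.875, 68.5 ± 7.15 and 34.5 ± 1.75 FPKM, with -0.30 between them (adjusted p = 0.0127).

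Over the 12 libraries, the tested protein-coding gene most like each member, among 9829, was described by Pearson's r of log2(FPKM + 0.5). The libraries fall into 3 groups, so r mostly follows the group means. It was Slc2a6 for Nfkb1 (0.992), Sap30 for Nfkb2 (0.997), Parp4 for Rel (0.972), Arid2 for Rela (0.944) and H4c8 for Relb (0.953). Among the inhibitors it was the chemokine Ccl5 for Nfkbia (0.994), Kctd1 for Nfkbib (0.989), Tor3a for Nfkbie (0.989), Pkp4 for Nfkbiz (0.986) and the receptor gene Tnfrsf1b for Tnfaip3 (0.996).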

How the data were processed

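RNA was sequenced from 12 libraries, 4 each of PLG+EACA+RNase, PLG+EACA and untreated macrophages. Libraries were directional, per the labels' protocols. The deposited values are FPKM per gene. Per the submitters' processing notes, the build was GRCm38.p6 and the tools included featureCounts 2.0.6, STAR 2.7.11a and cutadapt 4.5; their roles and the annotation are not given in the sources used here. FPKM times gene length summed to the same total in every library, and whole reads were recovered from the steps of low values (99.97% to 100% of values within 0.1 of a whole read). These were used for depth only.

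Genes with FPKM of at least 1 in at least 4 libraries were tested with limma 3.58.1 (R 4.3.3; log2(FPKM + 0.5), trended empirical Bayes, all 12 libraries in 1 fit, two-sided, Benjamini-Hochberg adjustment per comparison over 11165 genes, threshold 0.05). The code was tested on simulated data. Single ratios were tested by exact permutation (scipy 1.17.1). Median-of-ratios scaling, other scalings, pseudocounts of 0.1 and 1, other filters, a replicate block, fits of 2 groups and leaving out each library were alternatives. All 10 members are described; from each other list, the 4 tested genes with the smallest p in PLG+EACA against untreated are named and, of the 4 with the smallest p in PLG+EACA+RNase against PLG+EACA, those that passed, with the gene most correlated with each member and any gene that overlaps one. The members and lists were chosen with earlier results of these data known.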

Additional observations from a re-analysis of the deposited data

Results flagged for a closer look

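In 6 groups of 4 libraries, 1 library stood apart from the other 3, with a gap to its nearest neighbour, relative to the group's range, above Dixon's 95% critical value; chance gives about 1 in 20 groups. For FPKM, this held in 3 of 30 groups. Nfkb1 had 65.8 FPKM in PLG+EACA replicate 4, against 57.6 to 58.5 in the others. Rel had 21.2 FPKM in untreated replicate 2, against 20.2 to 20.3, and Nfkbie had 50.4 FPKM in the same library, against 46.5 to 46.8. Among ratios, it held in 3 of 33 groups. Nfkb1 per Rela was 0.983 in PLG+EACA+RNase replicate 4, against 0.824 to 0.845, and 0.751 in untreated replicate 4, against 0.696 to 0.701. Nfkbib per Rela was 1.16 in PLG+EACA replicate 3, against 1.02 to 1.04.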

How the results depend on the processing

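No fold change of the 10 genes that passed in the main fit turned its sign in another setting. Between other settings 2 did. Rela in PLG+EACA+RNase against untreated passed at -0.15 with TPM scaling and was 0.05 with median-of-ratios scaling. Relb in PLG+EACA against untreated passed at -0.20 without PLG+EACA replicate 2 or 3 and was 0.13 with median-of-ratios scaling. Of 300 fold changes in other settings, 281 kept their side of the threshold, and of 360 with 1 library left out, 336 did. The 264 ratio differences without 1 library, added after the data were seen, each moved by less than 1 SD between replicates. Leaving out 1 of 4 libraries cannot move a difference by that much, so this does not show that the ratios are robust. For PLG+EACA against untreated, median-of-ratios scaling called 3103 genes higher and 2818 lower (1661 and 5963 as deposited), 2789 and 3367 for PLG+EACA+RNase against untreated (1783 and 5408), and 867 and 1927 for PLG+EACA+RNase against PLG+EACA (1349 and 975). It gave 7 higher and 0 lower members in PLG+EACA+RNase against untreated, where the deposited scale gave 4 and 1. A filter at 5 FPKM, which tests fewer genes, gave 3546 lower in PLG+EACA against untreated, 1115 higher and 3344 lower in PLG+EACA+RNase against untreated, and 835 higher in PLG+EACA+RNase against PLG+EACA; no filter gave 3306 higher in the second and 636 lower in the third comparison. Fitting only the 2 groups compared gave 425 higher and 310 lower genes and 1 lower member for PLG+EACA+RNase against PLG+EACA. Members lower in PLG+EACA+RNase against untreated were 2 with TPM scaling (Rela joined Relb), and 0 without Gm26917 in the total, with no filter or with the replicate block. The cause was not tested. Without Gm26917 in the total, 9 members were higher in PLG+EACA (1723 genes in all) and 6 in PLG+EACA+RNase (1955 genes) than in untreated cells. Fitting only the 2 groups compared gave 9 members higher in PLG+EACA against untreated (1693 genes). Leaving out 1 library gave, for PLG+EACA against untreated, 1533 to 1700 genes higher and 5598 to 6035 lower, and 8 to 9 members higher and 0 to 1 lower. For PLG+EACA+RNase against untreated it gave 1630 to 1886 and 4976 to 5612 genes, and 4 to 7 and 0 to 2 members. For PLG+EACA+RNase against PLG+EACA it gave 569 to 1922 and 423 to 1306 genes, and 0 and 2 to 6 members. Same-numbered libraries did not deviate together in every pair (correlations of -0.18 to 0.33), and the numbers were not taken to pair the samples; with the replicate block 1586 genes were higher and 1092 lower in PLG+EACA+RNase against PLG+EACA, with 6 members lower, and it changed no member's call but that of Relb. Counting error lay below the median spread between replicates in both plasminogen groups but was of similar size to it in untreated libraries.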
